A study of Rattus norvegicus with 2 samples.

Results

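The genes described here encode the protein parts of the spliceosome and the RNA-binding proteins that steer it. They were taken from the table of all genes by symbol: names beginning with Snrp, Lsm and a digit, Sf3a or Sf3b, Srsf and a digit, Hnrnp, U2af, or Prpf and a digit, plus Mbnl1, Mbnl2 and Mbnl3. Of 14913 distinct names in the table, 86 matched, and the 84 with 20 or more reads over both libraries are the members. By class they were 13 Snrp, 13 Lsm, 9 Sf3, 2 U2af, 13 Prpf, 11 Srsf, 20 Hnrnp and 3 Mbnl genes. The 2 names left out were the pseudogene Snrpd2l, with 5 reads in all, and U2af1l4, with 4, and the member nearest the minimum was Mbnl2, with 25.

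The data came from poly(A)-selected RNA sequencing of RBL-2H3, a rat basophilic leukemia line that carries the high-affinity IgE receptor and serves as a mast cell and basophil model. There was 1 library of cells incubated with IgE, with 26268330 counted reads, and 1 library of cells given no treatment, with 20917968. Both are wild type, and the labels give no IgE dose, no incubation time and no statement on antigen. The study asked what follows IgE acting on these cells. With 1 library per group no test across cultures was possible, and every difference below sets 1 library against another, unchecked by replicates. Intervals are exact 95% Clopper-Pearson intervals of the read ratio and cover counting error only. CPM are reads scaled to a common library size by the trimmed mean of M-values (TMM), and log2 folds are IgE over untreated.

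Markers of the labelled cell type were present. All 8 listed mast cell and basophil genes were counted, with a summed level of 8230 CPM in IgE cells and 7919 CPM in untreated cells. Of 10 macrophage markers, 3 were in the table, summing to 3.21 and 5.48 CPM in IgE and untreated cells, and of 7 neutrophil markers 2 were, summing to 1.49 and 1.24 CPM, with Camp at 0 in both libraries. The lymphocyte list (3 of 8 in the table) summed to 16.8 and 15.8 CPM. The fibroblast and epithelial list (2 of 8) summed to 252.8 CPM in IgE cells and 281.6 CPM in untreated cells, nearly all of it the collagen gene Col3a1. The part of these genes in the differences below was not tested.

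Splicing removes introns from pre-mRNA in the nucleus. Small nuclear ribonucleoproteins (snRNPs), each a small nuclear RNA carrying a ring of Sm or Sm-like (Lsm) proteins, recognise the splice sites and build the catalytic core. SF3A and SF3B hold the U2 snRNP at the branch point, U2AF reads the polypyrimidine tract and the 3′ splice site, Prpf proteins shape the U4/U6.U5 particle, and SR proteins (Srsf), hnRNP proteins and muscleblind proteins (Mbnl) decide which sites are used. In activated immune cells, choices among splice sites are known to alter receptors, signalling proteins and cytokine transcripts.

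The member set as a whole was nearly level between the libraries, and the Sm and Lsm genes stood on its upper side. The 84 members took 2.39% of the reads in IgE cells (interval 2.38 to 2.39) and 2.36% in untreated cells (2.36 to 2.37). Their median log2 fold was 0.05, against 0.00 for all 12102 genes tested. Of the 84, 54 were above 0 and 30 below, where 51.1% of all tested genes were above 0 and 48.9% below. The 26 Snrp and Lsm genes, 2 classes pooled after their values were seen, had a median of 0.18, with 25 above 0. The other 58 had a median of 0.00, with 29 above and 29 below.

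By size, 1 member was at least 2-fold higher with IgE (Mbnl2), beside 1.33% of all tested genes, and 0 were at least 2-fold lower, beside 1.3%. At 1.5-fold, 2 were higher (Mbnl2 and Snrpg), where the share of all genes was 3.66%, and 0 were lower, where it was 3.53%. At 1.2-fold, 13 were higher, beside 13.1% of all genes, and 2 lower, beside 10.9%. Because weakly counted genes scatter more, the same counts were taken for genes with 500 or more reads. At 1.2-fold, 10 of 79 such members were higher, beside 6.51% of all such genes, and 1 was lower, beside 3.79%. At 1.5-fold, 1 of the 79 was higher and 0 were lower, beside 29 and 6 of the 8369 such genes. At 2-fold, 0 of the 79 were higher or lower, beside 4 higher and 0 lower of the 8369. The SD of the log2 fold among these 79 members was 0.17, the same as the 0.17 among all 8369 genes past the same minimum. The counting interval lay above 0 for 39 members, where it did for 20% of all tested genes, and below 0 for 18, where it did for 18.6%. It held 0 for the other 27. Such intervals narrow with depth, and members were deeper, with a median of 5744.5 reads beside 1402.5 for the tested genes. Once genes under 500 reads were set aside, the interval lay above 0 for 37 of 79 members and below 0 for 18. In the 8369 tested genes past that minimum, it lay above 0 for 2001 and below 0 for 1879. The 79 members were still deeper, with a median of 6016 reads beside 2672.

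**Figure D1:**
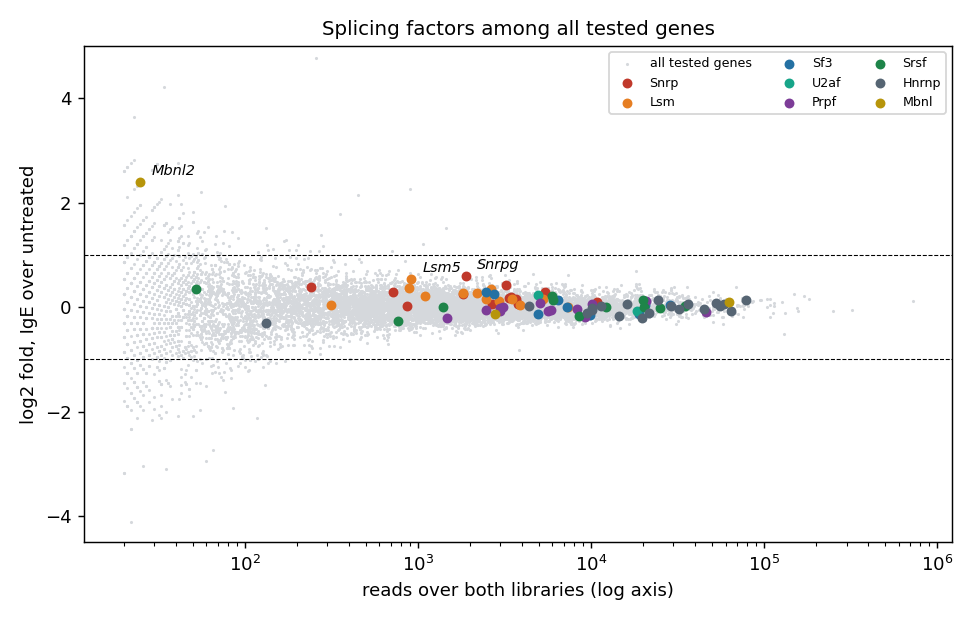
Each member is a coloured point by class, on the log2 fold of IgE over untreated cells (vertical axis) against its reads over both libraries (horizontal log axis); grey points are all tested genes and dashed lines mark a 2-fold difference. All members but Mbnl2, at 25 reads, lie within the dashed lines, and Snrpg and Lsm5 are the highest of the members with 500 or more reads.

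Promoter sequences are shown for the 3 well-counted genes with the highest folds (Snrpg, Lsm5 and Snrpd2), for Mbnl2, the only member past 2-fold, and for Hnrnpul2, the well-counted Hnrnp gene with the lowest fold, so that their upstream regions can be set beside each other. Each runs 5′ to 3′ along the gene from 250 bases before to 50 bases after its annotated start, from RefSeq on build GRCr8, which is a later build than the rn6 named in the submitters' processing notes. They lie at chr4:120369461-120369760 (+ strand) for Snrpg, chr4:87284427-87284726 (- strand) for Lsm5, chr1:87926159-87926458 (+ strand) for Snrpd2, chr15:103791938-103792237 (+ strand) for Mbnl2 and chr1:215142500-215142799 (+ strand) for Hnrnpul2. Capitals mark matches on either strand to the motifs searched, which were ETS (CCGGAAG), YY1 (AAGATGGC), the CCAAT box, the TATA box (TATAAA), the GC box (GGGCGG), the cAMP response element (TGACGTCA) and EGR (GCGTGGGCG).
Snrpg: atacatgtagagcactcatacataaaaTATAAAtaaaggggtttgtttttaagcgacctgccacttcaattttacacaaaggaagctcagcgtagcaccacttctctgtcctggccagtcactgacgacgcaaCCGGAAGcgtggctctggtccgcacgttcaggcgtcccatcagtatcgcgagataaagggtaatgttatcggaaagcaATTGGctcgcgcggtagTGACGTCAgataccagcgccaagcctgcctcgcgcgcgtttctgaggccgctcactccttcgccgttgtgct
Lsm5: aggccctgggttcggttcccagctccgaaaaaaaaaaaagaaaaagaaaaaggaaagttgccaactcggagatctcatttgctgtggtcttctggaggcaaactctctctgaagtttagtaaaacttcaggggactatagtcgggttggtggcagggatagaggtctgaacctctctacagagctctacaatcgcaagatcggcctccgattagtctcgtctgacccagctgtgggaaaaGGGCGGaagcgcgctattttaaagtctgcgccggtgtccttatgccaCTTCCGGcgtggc
Snrpd2: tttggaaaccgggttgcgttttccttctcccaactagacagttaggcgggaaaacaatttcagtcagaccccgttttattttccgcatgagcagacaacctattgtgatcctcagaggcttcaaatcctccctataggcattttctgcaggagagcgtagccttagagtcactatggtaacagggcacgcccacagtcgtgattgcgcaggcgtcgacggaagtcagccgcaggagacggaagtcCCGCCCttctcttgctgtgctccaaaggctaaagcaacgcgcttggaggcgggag
Mbnl2: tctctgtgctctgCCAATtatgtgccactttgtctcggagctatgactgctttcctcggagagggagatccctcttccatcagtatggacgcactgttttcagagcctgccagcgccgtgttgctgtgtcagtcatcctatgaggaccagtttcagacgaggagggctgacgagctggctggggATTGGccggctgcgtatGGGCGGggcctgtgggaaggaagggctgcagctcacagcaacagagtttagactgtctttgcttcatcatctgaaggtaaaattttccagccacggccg
Hnrnpul2: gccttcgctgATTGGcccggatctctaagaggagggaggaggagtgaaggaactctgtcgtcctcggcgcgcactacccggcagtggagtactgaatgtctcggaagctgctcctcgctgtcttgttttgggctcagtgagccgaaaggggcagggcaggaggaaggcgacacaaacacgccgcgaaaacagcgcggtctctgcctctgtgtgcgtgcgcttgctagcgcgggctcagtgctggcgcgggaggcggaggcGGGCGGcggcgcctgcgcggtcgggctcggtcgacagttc
In these windows Snrpg held an ETS match beginning 117 bases before the start, a cAMP response element beginning 22 bases before it, a reverse CCAAT box and a distant TATAAA. Lsm5 held a GC box beginning 10 bases before the start and a reverse ETS match in its first 50 transcribed bases. Snrpd2 held 1 reverse GC box, Mbnl2 a GC box and a CCAAT box on both strands, and Hnrnpul2 a GC box and a reverse CCAAT box, so no motif of this list was common to the 3 highest genes.

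Promoters were found for 77 of the 84 members. The ETS motif stood in 20 of the 77 (26.0%), against 10.7% of 21851 promoters of protein-coding genes of the same length. The GC box stood in 62.3% of members' promoters and 41.8% of protein-coding ones, the CCAAT box in 41 of 77 and 8295 of 21851, and the TATA box in 7.79% and 13.0%. YY1 was in 4 of 77 members' promoters (3.67% of protein-coding ones), the cAMP response element in 3 (459 of the 21851) and EGR in 1 (0.755%). Within the members, ETS stood in 7 of 23 Snrp and Lsm promoters and in 13 of 54 others. The GC box stood in 13 of 23 and 35 of 54, and the CCAAT box in 9 of 23 and 32 of 54. The median GC content was 59.3% in members' promoters and 55.0% in protein-coding ones. The protein-coding set took in genes whether or not they were counted in these cells. No share was taken over the counted genes alone, so what members share with other expressed genes was not tested. No motif has a read of binding behind it, and these are letter matches only.

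The Sm ring proteins, which close around the uridine-rich site of most small nuclear RNAs, all had log2 folds above 0. The 8 genes (Snrpb, Snrpd1, Snrpd2, Snrpd3, Snrpe, Snrpf, Snrpg and Snrpn) had a median of 0.23, and the interval excluded 0 for 6. Of the 4562 tested genes with 1000 to 5000 reads, the interval lay above 0 for 1019 and below 0 for 919. Their median was 2298.5 reads, beside 3306 for the ring. Snrpg, which encodes the ring's SmG, had 1233 reads in IgE cells (47.1 CPM), against 657 in untreated cells (31.3 CPM). Its log2 fold of 0.59 (interval 0.45 to 0.73), which just passes 1.5-fold, was the highest of any member with 500 or more reads. With library totals in place of TMM it was at log2 0.58, just under 1.5-fold.

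Snrpd2, for SmD2, had 2037 reads (77.8 CPM) in IgE cells and 1215 (57.9 CPM) in untreated cells (log2 0.43, interval 0.32 to 0.53). Snrpd3, for SmD3, had 125.1 CPM in IgE cells and 102.4 CPM in untreated cells (0.29, 0.21 to 0.37). Snrpe, for SmE, had 16.7 CPM in IgE cells and 13.7 CPM in untreated cells (0.28, 0.066 to 0.50). Snrpf, for SmF, had 75.2 CPM in IgE cells and 66.3 CPM in untreated cells (0.18, 0.082 to 0.28). Smaller differences were seen in the rest of the ring. Snrpb, the ring gene with most reads, stood at 236.3 CPM in IgE cells and 221.1 CPM in untreated cells (0.096, 0.041 to 0.15). Snrpd1 (0.056, -0.038 to 0.15) and Snrpn, an imprinted relative of Snrpb that is best known from brain (0.014, -0.18 to 0.21), had intervals that held 0. SmD1 and SmD2 sit beside each other in the assembled ring, and their genes had folds of 0.056 and 0.43.

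The 4 Snrp genes for proteins of the U1 or U2 particle outside the ring were also above 0. The U1 protein gene Snrnp70, which the symbol rule does not catch and which was chosen after its value was seen, had 452.4 CPM in IgE cells and 488.5 CPM in untreated cells (-0.11, -0.15 to -0.072). Snrpc, for the C protein of the U1 particle that helps read the 5′ splice site, had 82.0 CPM in IgE cells and 73.3 CPM in untreated cells (log2 0.16, interval 0.067 to 0.26). Snrpb2 (0.25, 0.11 to 0.38) and Snrpa1 (0.19, 0.087 to 0.28) encode the U2 proteins that bind together to a loop of U2 RNA. Snrpa, for the A protein of the U1 particle, had 58.2 CPM in IgE cells and 56.0 CPM in untreated cells (0.056, -0.055 to 0.17). Snrpel1, which RefSeq lists as a pseudogene, was counted at 150 reads in IgE cells and 92 in untreated cells (0.38, 0.0019 to 0.78), on the same side as Snrpe. All Snrp reads together made 0.0940% of the IgE library (interval 0.0928 to 0.0951) and 0.0828% of the untreated one (0.0816 to 0.0841).

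**Figure D2:**
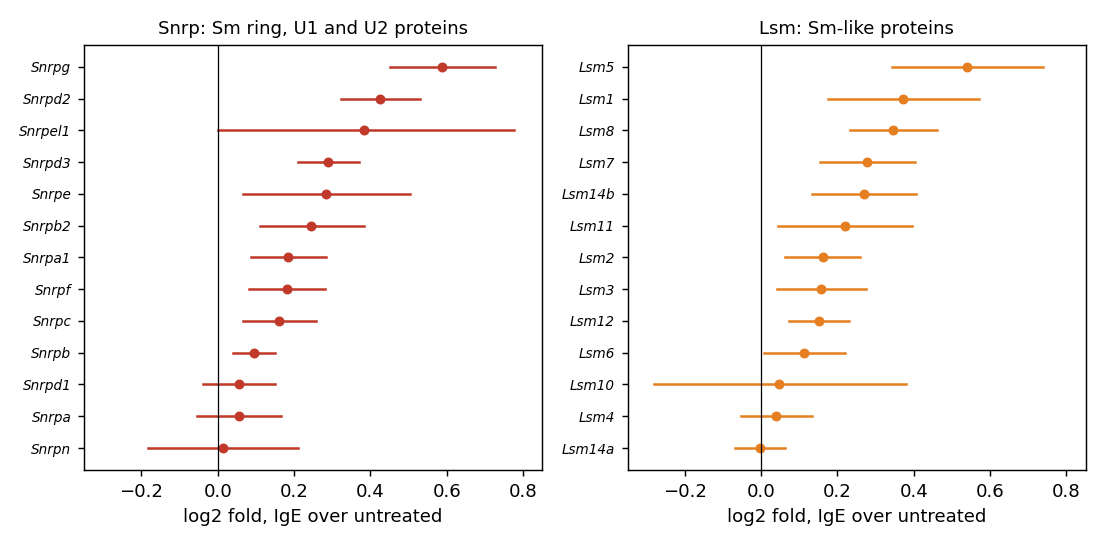
Log2 fold of IgE over untreated cells (points) with exact 95% counting intervals (bars) for the 13 Snrp genes (left) and 13 Lsm genes (right), each sorted by fold. All Snrp genes and 12 Lsm genes lie right of the line at 0, with Snrpg at 0.59 and Lsm5 at 0.54 highest and Lsm14a at -0.0033 lowest.

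The Lsm ring genes gave a similar median to the Sm ring. Lsm2 to Lsm8 form the nuclear ring on U6 small nuclear RNA, while Lsm1 replaces Lsm8 in the cytoplasmic ring that prepares deadenylated mRNA for decapping. All 8 genes, Lsm1 to Lsm8, were above 0, with a median of 0.22, and the interval excluded 0 for 7. Of the 4562 tested genes with 1000 to 5000 reads, the interval lay above 0 for 1019 and below 0 for 919. Lsm5 had 593 reads in IgE cells (22.6 CPM), against 327 in untreated cells (15.6 CPM), a log2 fold of 0.54 (interval 0.34 to 0.74). Lsm1 had 552 reads (21.1 CPM) in IgE cells and 342 (16.3 CPM) in untreated cells (0.37, 0.17 to 0.57). Lsm8 had 62.3 CPM in IgE cells and 49.0 CPM in untreated cells (0.35, 0.23 to 0.46). The subunits that tell the cytoplasmic from the nuclear ring thus had overlapping intervals. Lsm7 stood at 0.28 (0.15 to 0.40). Lsm2, Lsm3 and Lsm6 stood between 0.11 and 0.16, and Lsm4, with 83.1 CPM in IgE cells and 80.8 CPM in untreated cells, was the ring's lowest (0.039, -0.053 to 0.13).

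Of the Lsm proteins outside these rings, Lsm10 and Lsm11 belong to the U7 particle that processes histone mRNA. Lsm11 had 652 reads in IgE cells and 449 in untreated cells (0.22, 0.043 to 0.40), and Lsm10 had 178 and 138 reads in IgE and untreated cells (0.048, -0.28 to 0.38). Lsm14a and Lsm14b encode related proteins of processing bodies that repress translation. Lsm14b stood at 42.0 CPM in IgE cells and 34.8 CPM in untreated cells (0.27, 0.13 to 0.41), while Lsm14a, the Lsm gene with most reads, was level at 156.4 CPM in IgE cells and 156.8 CPM in untreated cells (-0.0033, -0.070 to 0.063). The intervals of these paralogs did not overlap. Lsm12 stood at 0.15 (0.073 to 0.23).

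Several features moved with the Sm and Lsm folds, and the part of each was not tested. In a narrower range of depth, 1000 to 5000 reads, all 16 Snrp and Lsm genes were above 0 with a median of 0.18, against 51.5% of 4562 tested genes and a median of 0.0062. Gene span on the genome, from RefSeq, was related to the fold over all genes: with 500 or more reads, protein-coding genes under 5 kb had a median of 0.097 with 71.4% above 0, those of 5 to 20 kb a median of 0.026 with 56.7% above 0, and those of 20 kb or more a median of -0.024 with 42.5% above 0. In the 5 to 20 kb range all 18 Snrp and Lsm genes were above 0 with a median of 0.18, and of 28 other members 16 were, with a median of 0.015. At 20 kb or more, 2 of 3 Snrp and Lsm genes were above 0 with a median of 0.014, and 9 of 23 other members, with a median of -0.032. Under 5 kb, 3 of 3 Snrp and Lsm genes were above 0 with a median of 0.43, and 2 of 4 others, with a median of 0.061. Across the 79 members with 500 or more reads, Spearman's rho of fold and span was -0.36 and Pearson's r with log10 span was -0.38, and over 7809 tested genes they were -0.26 and -0.27. For fold and reads over both libraries, rho was -0.33 and Pearson's r with log10 reads was -0.36 across the same 79 members. Over 8369 tested genes they were -0.056 and -0.048. Genes share their library, so these correlations describe the 2 libraries and are not tests. Other lists of genes for subunits of large complexes lay on the same side: cytosolic ribosomal protein genes had a median of 0.26 (75 of 77 above 0), mitochondrial ribosomal protein genes 0.14 (65 of 73) and proteasome subunit genes 0.14 (28 of 36).

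Sm genes have many retrocopies, and reads could be divided among near-identical copies. RefSeq lists names that mark a copy (the member's symbol with -ps or a trailing l) for 10 Snrp genes, of which Snrpc has 10 and Snrpg has 9, and for 6 Lsm genes. Only 2 such names, Snrpel1 and Snrpd2l, were in the count table. The 7 Lsm genes without such a copy were all above 0 with a median of 0.22, and the 2 Snrp genes without one, Snrpa and Snrpa1, had a median of 0.12.

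SF3A and SF3B, which clamp the branch point into the U2 particle, did not shift together. The 3 SF3A genes had a median of -0.13 and the 6 SF3B genes one of 0.091. Within SF3B, the small subunits were highest. Sf3b5 had 57.4 CPM in IgE cells and 46.7 CPM in untreated cells (log2 0.30, interval 0.18 to 0.41), and Sf3b6 had 62.9 CPM in IgE cells and 52.6 CPM in untreated cells (0.26, 0.15 to 0.37). Sf3b4 stood at 0.13 (0.063 to 0.21). The large scaffolds were nearer to level: Sf3b1, the member with most reads in this class and a gene often mutated in human myeloid neoplasms, had 615.5 CPM in IgE cells and 595.4 CPM in untreated cells (0.048, 0.014 to 0.082), and Sf3b3 was at 0.039 (-0.0012 to 0.078). Sf3b2 was lower, at 384.5 CPM in IgE cells and 421.4 CPM in untreated cells (-0.13, -0.17 to -0.091).

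Of SF3A, Sf3a1 had 200.3 CPM in IgE cells and 221.4 CPM in untreated cells (-0.14, -0.20 to -0.087), Sf3a2 was at -0.13 (-0.21 to -0.051) and Sf3a3 at 0.0034 (-0.064 to 0.071). The SF3B subunit Phf5a, which the symbol rule does not catch, had 89.4 CPM in IgE cells and 81.1 CPM in untreated cells (0.14, 0.050 to 0.23). The U2AF subunits also differed in direction. U2af1, which reads the AG at the 3′ splice site, had 112.6 CPM in IgE cells and 95.6 CPM in untreated cells (0.24, 0.15 to 0.32), whereas its partner U2af2, which binds the polypyrimidine tract, had 382.5 CPM in IgE cells and 401.5 CPM in untreated cells (-0.070, -0.11 to -0.028). The 2 intervals did not overlap.

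The Prpf genes lay slightly on the lower side, with 3 of 13 above 0, 10 below and a median of -0.050. Prpf8, the large U5 protein at the heart of the active site, had 25051 reads in IgE cells (956.7 CPM), against 21346 in untreated cells (1017 CPM), a log2 fold of -0.088 (interval -0.11 to -0.062). The lowest were Prpf40b (29.2 CPM in IgE cells and 33.5 CPM in untreated cells; -0.20, -0.35 to -0.050) and Prpf38b (184.0 and 209.2 CPM in IgE and untreated cells; -0.19, -0.24 to -0.13). Prpf31, a U4/U6 protein known for its role in inherited human retinal degeneration, stood at 0.087 (0.0067 to 0.17), and the ubiquitin ligase Prpf19 at 0.059 (0.0023 to 0.12). For 6 of the 13 genes the interval held 0, where it did for 4489 of the 8369 genes with 500 or more reads. The class had a median of 5623 reads, beside 2672 for those genes.

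The SR proteins bind exonic enhancers through their RNA recognition motifs and recruit the core machinery through arginine-serine repeats. Of 11 Srsf genes, 7 were above 0 and 4 below, with a median of 0.012. Srsf7 had 134.1 CPM in IgE cells and 116.0 CPM in untreated cells (log2 0.21, interval 0.13 to 0.28). Its close relative Srsf3, which like Srsf7 also links splicing to mRNA export, had 444.1 CPM in IgE cells and 403.6 CPM in untreated cells (0.14, 0.098 to 0.18), and Srsf11 stood at 0.13 (0.059 to 0.21). These 3 genes had intervals above 0, where 2001 of the 8369 genes with 500 or more reads did. The class had a median of 8502 reads, beside 2672 for those genes. RefSeq names 10 copies of Srsf3 and 7 of Srsf7, so their counts are uncertain.

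Srsf4 had 171.0 CPM in IgE cells and 191.8 CPM in untreated cells (-0.17, -0.23 to -0.10). Srsf10, which represses splicing when it loses its phosphates, had 390 reads in IgE cells and 377 in untreated cells (14.9 and 18.0 CPM; -0.27, -0.48 to -0.062). These 2 had intervals below 0, where 1879 of the 8369 genes with 500 or more reads did. The remaining 6 could not be told from level: Srsf1, the founding SR protein and the class member with most reads, was at 744.5 CPM in IgE cells and 735.4 CPM in untreated cells (0.018, -0.013 to 0.048), and Srsf2, Srsf5, Srsf6 and Srsf9 lay between -0.013 and 0.012. Srsf12 had the highest fold of the class on only 32 reads in IgE cells and 20 in untreated cells (0.35, -0.49 to 1.24).

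**Figure D3:**
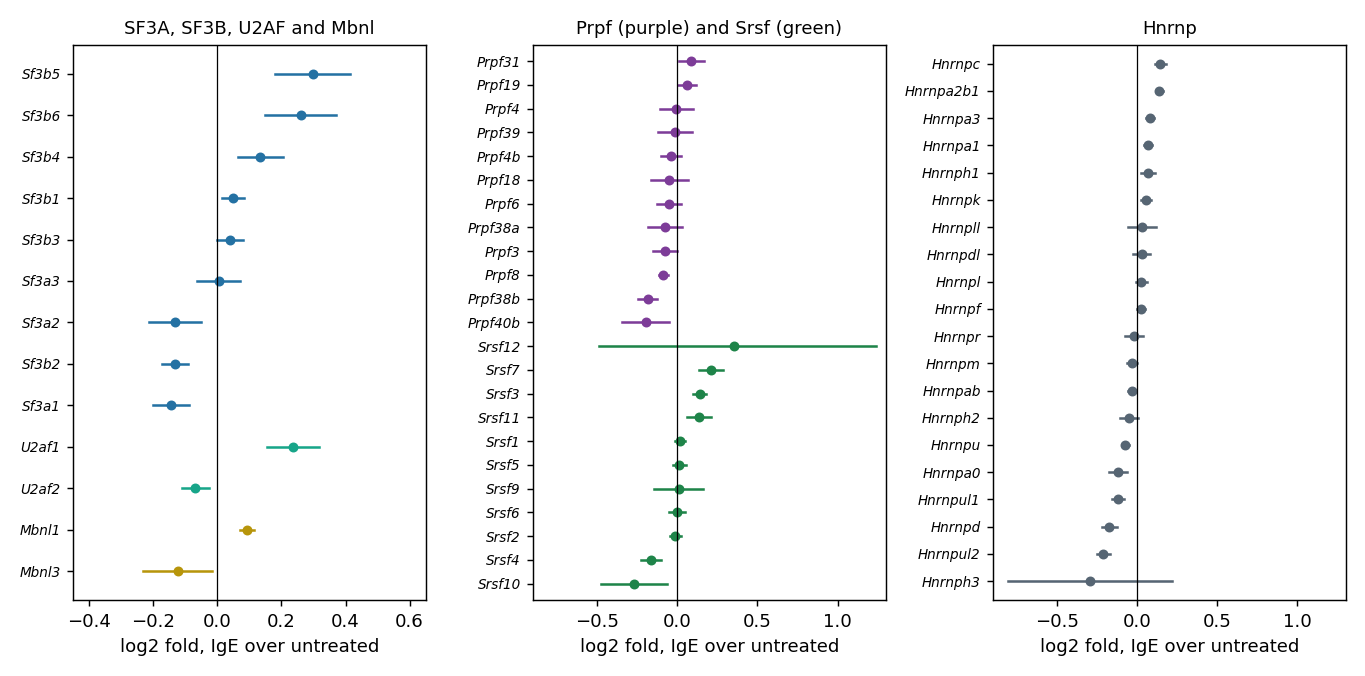
Log2 fold of IgE over untreated cells (points) with exact 95% counting intervals (bars) for the SF3A, SF3B, U2AF and Mbnl genes (left, narrower axis), Prpf and Srsf genes (middle) and Hnrnp genes (right); Mbnl2, at 2.39, is beyond the axis and not drawn, and 12 of the 13 Prpf genes are shown. Most points stand within 0.2 of the line at 0, and the longest bars belong to Srsf12 and Hnrnph3, which have few reads.

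The heterogeneous nuclear ribonucleoproteins coat nascent transcripts and often oppose SR proteins. They took 1.26% of reads in IgE cells and 1.26% in untreated cells, more than the other 7 classes together, and their 20 genes split into 10 above 0 and 10 below, with a median of 0.00053. The interval lay above 0 for 6 and below 0 for 7. For the 8369 tested genes with 500 or more reads, it lay above 0 for 2001 and below 0 for 1879. The Hnrnp genes were far deeper, with a median of 23007 reads beside 2672, so that small folds could exclude 0. Hnrnpa2b1, the class member with most reads, had 45321 reads in IgE cells (1731 CPM), against 33026 in untreated cells (1574 CPM), a log2 fold of 0.14 (interval 0.12 to 0.16). Hnrnpc, which binds uridine tracts and packages pre-mRNA, had 538.0 CPM in IgE cells and 486.9 CPM in untreated cells (0.14, 0.11 to 0.18). Hnrnpa1 and Hnrnpa3, A-type relatives of Hnrnpa2b1, were at 0.067 (0.043 to 0.090) and 0.077 (0.052 to 0.10), while the A-type gene Hnrnpa0 was at -0.12 (-0.18 to -0.062).

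On the lower side were the U-type genes. Hnrnpul2 had 389.5 CPM in IgE cells and 451.6 CPM in untreated cells (-0.21, -0.25 to -0.17). Hnrnpul1 had 443.0 CPM in IgE cells and 481.7 CPM in untreated cells (-0.12, -0.16 to -0.082), and Hnrnpu, a scaffold-attachment protein that binds chromatin and RNA, had 1330 CPM in IgE cells and 1401 CPM in untreated cells (-0.075, -0.098 to -0.053). All 3 genes of this type had intervals below 0. Hnrnpd, for AUF1, which binds AU-rich elements in cytokine and early response mRNAs, had 290.2 CPM in IgE cells and 327.7 CPM in untreated cells (-0.18, -0.22 to -0.13). Hnrnph3 had the lowest fold of all members on 67 reads in IgE cells and 66 in untreated cells (-0.30, -0.81 to 0.21). Hnrnpl and Hnrnpll, which regulate exons of the phosphatase gene Ptprc in lymphocytes, were level at 0.025 and 0.030, with intervals that held 0. RefSeq names 51 copies of Hnrnpa1 and 7 of Hnrnpc, so their counts are uncertain.

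The muscleblind proteins bind clustered RNA motifs through zinc fingers and steer alternative exons during differentiation. Mbnl1 had 35689 reads in IgE cells (1363 CPM), against 26821 in untreated cells (1278 CPM), a log2 fold of 0.093 (interval 0.070 to 0.12). Mbnl3 had 1499 reads in IgE cells (57.2 CPM) and 1309 in untreated cells (62.4 CPM), a log2 fold of -0.12 (-0.23 to -0.016). Mbnl2 had 22 reads in IgE cells (0.840 CPM), against 3 in untreated cells (0.143 CPM), which gave a log2 fold of 2.39 (0.82 to 4.94), or 1.57 with a prior of 5 counts. The untreated count equals the 3 reads taken as the detection floor. The 3 paralogs thus had intervals that did not overlap, with the only member past 2-fold resting on 25 reads.

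In the authors' deposited table, 4 members had an unadjusted p under 0.05, all higher with IgE, where 4.94% of all 14913 names did. They were Mbnl2 (p = 0.00268), Snrpg (p = 0.00752), Lsm5 (p = 0.0202) and Snrpd2 (p = 0.0488), and after adjustment the p in the authors' deposited table was 0.280 for Mbnl2, 0.445 for Snrpg, 0.688 for Lsm5 and 1 for the other 81 members. Mbnl2 was the 1 member in the authors' deposited list of 451 selected names. With 1 library per group these p-values rest on no replicates.

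Of 165 further symbols for genes of the splicing machinery outside the symbol rule, in 7 lists, 144 were over the minimum of reads. Their median was -0.0021, with 71 above 0 and 73 below. None of them, 0 of 144, was at least 1.5-fold apart, beside 3.66% of all tested genes higher and 3.53% lower. These genes were deeply counted, with a median of 5486.5 reads. Of the 8369 tested genes with 500 or more reads, only 29 were at least 1.5-fold higher and 6 lower. At 1.2-fold, 5 of the 144 were higher and 4 lower, beside 13.1% and 10.9% of all tested genes. Among genes with 500 or more reads those shares were 6.51% and 3.79%. Their summed reads made 2.61% of the IgE library and 2.68% of the untreated one. Of the remaining 21 symbols, 2 were under the minimum and 19 had no entry under the symbol searched.

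Among 25 other snRNP proteins, 15 were above 0, with a median of 0.034. The highest were Zmat5 (155 reads in IgE cells and 89 in untreated cells; log2 0.48, interval 0.096 to 0.87) and Snrnp35 (542 and 321 reads in IgE and untreated cells; 0.44, 0.23 to 0.64), both proteins of the minor U11/U12 particle. Of the other proteins of that particle, named after their values were seen, Snrnp25 stood at 0.26 (0.070 to 0.45), and Snrnp48 (0.13, -0.058 to 0.32), Rnpc3 (0.041, -0.12 to 0.20) and Pdcd7 (-0.074, -0.26 to 0.11) had intervals that held 0. Lowest were the tri-snRNP protein Sart1 (-0.26, -0.33 to -0.19) and the U2 helicase Ddx46 (-0.16, -0.20 to -0.12). In the SMN and snRNP assembly list, which loads Sm rings onto small nuclear RNA, 13 of 16 were above 0 with a median of 0.064, from Gemin2 (0.24) and Gemin8 (0.18) down to the coilin gene Coil (-0.20) and Gemin7 (112 reads in IgE cells and 122 in untreated cells; -0.44, -0.83 to -0.061).

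The SR-related proteins and SR protein kinases lay mostly on the lower side, with 3 of 21 above 0, 18 below and a median of -0.045. For 11 the interval was below 0 and for 2 above. Of all 8369 genes with 500 or more reads, it was below 0 for 1879 and above for 2001. This list was deeper, with a median of 10928 reads beside 2672 for those genes. Its median gene span was 33279 bp, beside 25753 bp. The part of depth or span was not tested. Lowest were Rnps1 (243.0 CPM in IgE cells and 277.6 CPM in untreated cells; -0.19, -0.24 to -0.14) and Srrm2, a very large nuclear speckle scaffold (1159 CPM in IgE cells and 1317 CPM in untreated cells; -0.18, -0.21 to -0.16). Highest were Clk1, a kinase that phosphorylates SR proteins (97.4 CPM in IgE cells and 86.0 CPM in untreated cells; 0.18, 0.092 to 0.27) and the SR-like Tra2a (0.17, 0.10 to 0.24).

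In the exon junction complex and nonsense-mediated decay list 6 of 15 genes were above 0. The highest were the core subunits Magoh (0.29, 0.17 to 0.41) and Rbm8a (0.27, 0.20 to 0.33), the core helicase Eif4a3, chosen after its value was seen, was at 0.052 (-0.0013 to 0.11), and the decay factor Smg9 (-0.29, -0.46 to -0.12) and the core protein Casc3 (-0.27, -0.33 to -0.20) were lowest, for a median of -0.045 over 15 genes. The catalytic step list (25 genes, 11 above 0) had a median of -0.0058, from the helicase gene Dhx16 (-0.23) and the G-patch protein gene Gpatch1 (-0.19) to Bcas2 and Ppie (both 0.13). The branch point list (13 genes, 9 above 0) had a median of 0.0095, from Bud13 (-0.23) and Cherp (-0.16) to Dhx15 (0.078) and Rbmx2 (0.090). The other splicing regulators (29 genes, 14 above 0) had a median of 0.00. Their lowest were Esrp2 (15 reads in IgE cells and 17 in untreated cells; -0.48, -1.60 to 0.59) and Tia1 (-0.20, -0.34 to -0.064), and their highest were Tial1, the paralog of Tia1 (0.23, 0.13 to 0.33), and the cold-inducible Rbm3 (0.17, 0.14 to 0.20).

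**Figure D4:**
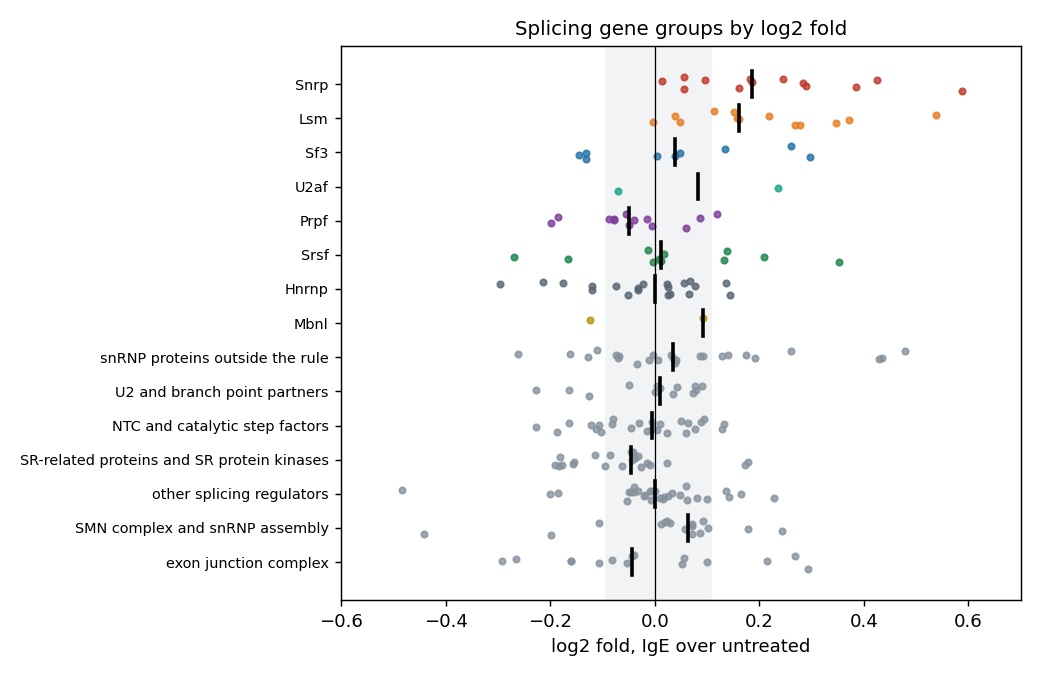
Log2 fold of IgE over untreated cells for each gene (points, spread vertically for legibility) in the 8 member classes (coloured) and 7 further splicing lists (grey); black bars are medians and the shaded band runs from the lower to the upper quartile of all genes with 500 or more reads (-0.093 to 0.11). Mbnl2, at 2.39, is beyond the axis but counted in its median. The Snrp and Lsm medians (0.19 and 0.16) are the only ones to the right of the band.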

How the data were processed

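RNA of 1 IgE-treated and 1 untreated culture of RBL-2H3 cells was sequenced after poly(A) selection, per the labels' protocols. The authors deposited raw read counts per gene name, and log2 fold changes and p-values of their own comparison, per the file headers. Build rn6 and the tools HISAT2 2.1.0, fastp 0.23.0 and DESeq2 1.18.1 appear in the submitters' processing notes, with no role for each. How reads were counted, by strand or over repeats, is not given in the sources used here, so genes that overlap or have near-identical copies are uncertain.

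Identical rows (2077 of 16990) were kept once. Log2 CPM came from edgeR 4.0.16 (R 4.3.3) with TMM scaling, a prior of 0.5 counts and a minimum of 20 reads, fitted on all genes and tested on simulated data. Groups follow the treatment label. A count of 3 reads, the floor, is 0.115 CPM in the IgE and 0.143 CPM in the untreated library. No test was made. Intervals take in counting error alone, as reads without molecular identifiers need not be separate molecules. Alternatives were library totals, DESeq2 1.42.0 size factors, a prior of 5, other minimums and other denominators.

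Members, lists and classes were chosen with earlier results of these data known. Named were the members at least 1.5-fold apart, the Mbnl genes, and the 2 highest, 2 lowest and most-read genes of each class, plus the 2 highest and 2 lowest of each further list. Other genes named, and the ring and the U1 and U2 subgroups, were chosen after values were seen, as were the subsets by reads, span and copies. The pooling of Snrp with Lsm and the split of Sf3 into SF3A and SF3B were also made after values were seen. Protein lengths were not used here, so levels are not compared between genes, and genomic span took the place of length. All 84 members matched a RefSeq symbol. 1 gene that the rule names is counted in its class but not reported here.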

Additional observations from a re-analysis of the deposited data

How the results depend on the processing

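The Snrp and Lsm medians kept their sign and stayed within a typical member's counting interval under every alternative run. The 196 alternative folds of the 33 genes named by rule stayed within each gene's counting interval, in large part by construction. A change of the minimum leaves a gene's fold as it was, and a change of scaling shifts all folds nearly alike. Of the members not named by rule, Sf3a3 turned to -0.0058 and Srsf9 to -0.0015 with library totals. Scaling moved the median of all genes by at most 0.01. Without a minimum of reads, U2af1l4 made 1 gene at least 2-fold lower and 1 at least 1.5-fold lower, and the U2af median was -0.070, or -0.0058 as the fold of summed reads, against 0.083. With a minimum of 100 reads 0 members were at least 2-fold higher, 1 was at least 1.5-fold higher, and the Mbnl median was -0.016, as it was without Mbnl2, against 0.093. Library totals, or keeping identical rows, also left 1 gene at least 1.5-fold higher, since Snrpg lies at that limit. Asking that the interval exclude 0 left 1 gene at least 1.2-fold lower. At an adjusted p under 0.05, 0 members were in the authors' deposited list. The log2 ratio of read shares, IgE over untreated, depended on the gene with most reads. Without it the ratio was 0.0063 for all members (0.015 with it), 0.22 for Snrp (0.18), 0.18 for Lsm (0.14), -0.029 for Sf3 (-0.010), 0.23 for U2af (-0.015), -0.0095 for Prpf (-0.042), -0.013 for Hnrnp (0.0057) and -0.12 for Mbnl (0.075). With mitochondrial and ribosomal protein genes out of the denominator it was 0.029 for all members and 0.020 for Hnrnp. No paired analysis was possible because there is a single library per group, so leaving out a library was not possible either. Depth limits Mbnl2, Srsf12 and Hnrnph3 most.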
